A study of Mus musculus with 3 samples.

Results

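The type I interferon response genes described here are 35 genes named in a fixed list: antiviral effectors, sensors of foreign nucleic acid, and the IRF and STAT factors that act downstream of the interferon receptor. They were found by gene symbol in the annotation of the array, and this search did not use their values. The list itself was chosen with earlier results of these data known, so counts over it are no independent support. Of the 35 symbols, 31 had a probe set of their own, out of 18820 genes measured that way. Ifi47 and Igtp share their probe sets with another gene, Ifi44 had no probe set under its symbol, and the listed symbol Eif2ak2x matched no gene; these 4 were not analysed here. The filter on low values, which kept genes whose log2 values averaged at least 4.14, the median gene's mean, was passed by 30 of the 31, and Mx1 was the member below it.

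The cells were RAW264.7, a transformed mouse macrophage line from the ATCC, and the series holds 3 arrays of 1 culture each. One culture was given palmitate, a saturated fatty acid; one elaidate, a trans monounsaturated fatty acid; and one oleate, its cis isomer. All 3 were dosed at 500 µM for 6 hours, with the fatty acid coupled to fatty acid-free bovine serum albumin at 2 fatty acids per albumin. No untreated or albumin-only array was analysed here, so each value below is set against another fatty acid and not against a resting cell. With 1 array per fatty acid there is no replicate check, no p-value and no error for any difference, and all differences are between the arrays themselves.

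Type I interferons are secreted when a cell senses viral or other misplaced nucleic acid, or when certain Toll-like receptors are engaged. They bind the receptor formed by Ifnar1 and Ifnar2, whose kinases Jak1 and Tyk2 phosphorylate STAT factors such as STAT2. STAT2 joins IRF9 in a complex that binds the interferon-stimulated response element (ISRE) in the promoters of many interferon-stimulated genes. Macrophages can also hold part of this programme at a basal level through autocrine interferon.

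The ISRE is the sequence through which this response is known to act, and the promoter windows below show its letters in 3 members that differed between the arrays (Rsad2, Ifit1 and Isg15) and in 3 that had equal values on all of them (Ifit3, Oas3 and Bst2). Each window is from RefSeq on build GRCm38.p6 and runs 5′ to 3′ on the strand of the gene, from 250 bases before the annotated start to 50 after it. Capitals mark the letters GAAANNGAAA or their reverse complement; overlapping matches run together.
Rsad2, chr12:26456403-26456702, minus strand: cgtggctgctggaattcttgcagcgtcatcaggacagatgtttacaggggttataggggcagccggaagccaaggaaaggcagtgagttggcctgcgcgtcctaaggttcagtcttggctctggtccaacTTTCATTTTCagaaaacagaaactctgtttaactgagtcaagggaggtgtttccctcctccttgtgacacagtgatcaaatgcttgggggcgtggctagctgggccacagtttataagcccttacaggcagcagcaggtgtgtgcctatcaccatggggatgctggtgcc
Ifit1, chr19:34640639-34640938, plus strand: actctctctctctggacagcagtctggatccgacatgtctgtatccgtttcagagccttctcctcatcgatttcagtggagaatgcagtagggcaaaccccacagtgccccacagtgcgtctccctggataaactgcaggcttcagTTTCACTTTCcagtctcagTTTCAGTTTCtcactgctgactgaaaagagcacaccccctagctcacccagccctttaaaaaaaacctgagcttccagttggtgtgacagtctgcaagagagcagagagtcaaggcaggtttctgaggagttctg
Isg15, chr4:156200769-156201068, minus strand: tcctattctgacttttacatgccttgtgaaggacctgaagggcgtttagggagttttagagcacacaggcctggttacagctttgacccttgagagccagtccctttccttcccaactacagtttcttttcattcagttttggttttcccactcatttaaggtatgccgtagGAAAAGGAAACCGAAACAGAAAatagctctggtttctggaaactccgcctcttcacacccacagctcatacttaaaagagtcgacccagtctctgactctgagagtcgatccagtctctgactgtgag
Ifit3, chr19:34583279-34583578, plus strand: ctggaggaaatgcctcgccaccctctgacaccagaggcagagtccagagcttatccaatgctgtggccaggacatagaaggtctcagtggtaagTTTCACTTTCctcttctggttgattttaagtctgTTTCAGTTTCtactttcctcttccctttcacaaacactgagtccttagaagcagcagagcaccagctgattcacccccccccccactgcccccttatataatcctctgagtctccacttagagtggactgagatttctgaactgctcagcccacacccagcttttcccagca
Oas3, chr5:120777610-120777909, minus strand: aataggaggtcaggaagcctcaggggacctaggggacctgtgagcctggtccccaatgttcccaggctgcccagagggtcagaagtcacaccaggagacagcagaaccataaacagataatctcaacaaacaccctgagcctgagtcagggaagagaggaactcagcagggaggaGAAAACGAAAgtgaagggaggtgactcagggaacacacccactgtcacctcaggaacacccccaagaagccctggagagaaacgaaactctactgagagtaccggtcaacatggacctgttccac
Bst2, chr8:71537423-71537722, minus strand: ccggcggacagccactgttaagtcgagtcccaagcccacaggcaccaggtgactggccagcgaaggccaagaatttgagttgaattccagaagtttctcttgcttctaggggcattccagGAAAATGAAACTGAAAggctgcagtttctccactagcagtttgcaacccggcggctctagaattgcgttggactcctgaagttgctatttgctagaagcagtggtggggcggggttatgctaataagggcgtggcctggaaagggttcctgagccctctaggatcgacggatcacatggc
Isg15 held 3 overlapping matches between positions -78 and -57 from the start, and Bst2 held 2 overlapping ones between -130 and -115. Ifit1 had its matches at -104 to -95 and -85 to -76, Ifit3 at -156 to -147 and -122 to -113, Rsad2 at -120 to -111 and Oas3 at -75 to -66.

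Across the series, the palmitate array stood further from the other arrays than these did from each other. Over the 9410 genes past the filter, differences of log2 values had a standard deviation of 0.38 for palmitate minus oleate, 0.33 for palmitate minus elaidate and 0.13 for elaidate minus oleate, and the median difference was 0 in each. The macrophage label was checked against 12 markers, of which 11 passed the filter; Cd68, a lysosomal glycoprotein of macrophages, stood at 11.77 on all 3 arrays, while the mannose receptor gene Mrc1 was below the filter at 2.71. The summed linear level of the macrophage markers was 12799 with palmitate, 15613 with elaidate and 16372 with oleate. With palmitate, 10 of the 11 were lower than with oleate (90.9%, beside 36.8% of all genes). Of these, Mertk was at least 2-fold lower, beside 1.22% of all genes. None of 9 measured lymphocyte and NK cell markers passed the filter. Of 8 conventional dendritic cell markers 2 passed it, with no value above 4.72. Of 7 fibroblast and endothelial markers 2 passed it, with no value above 5.00. Siglech, a defining gene of plasmacytoid dendritic cells, the specialised interferon producers, was below the filter at 2.55 on all 3 arrays. Of 8 measured markers of these cells, however, 4 passed the filter: Tcf4, Bst2, Irf8 and Cox6a2. Tcf4 had 8.45 with palmitate and 8.58 with elaidate and with oleate. Bst2 was at 8.49 on all 3 arrays, and Irf8 had 7.95 with palmitate, 8.84 with elaidate and 9.34 with oleate. Cox6a2, a cytochrome oxidase subunit gene on that marker list that muscle also expresses, had log2 values of 6.88 with palmitate, 4.97 with elaidate and 4.30 with oleate. The part of these marker differences in the results below was not tested.

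Members of the interferon list were higher with palmitate than with oleate or equal to it, and none past the filter was lower, beside 36.8% of all genes. Rsad2, Ifit1 and Mx2 were at least 2-fold higher, which is 3 of 30 or 10.0%, beside 1.65% of all 9410 genes. At least 1.5-fold higher were 11 of 30, or 36.7%, beside 4.57% of all genes, and any higher value was found for 22 of 30, beside 30.9% of all genes. The remaining 8 had equal values on those arrays, beside 32.3% of all genes. The median log2 difference of the members was 0.34, or 1.27-fold, against 0 for all genes. With each array centred on its median, 19 members were higher and 11 lower, the lower ones by no more than 0.04. Mx2 then fell under 2-fold, at 0.97, which left 2 members past that limit. Cyclic loess moved no member by more than 0.0003 in any comparison and made none lower here. It counted 29 higher and 1 equal for this pair, with no shift above 0.0001, so the count of any higher value depends on ties. In bulk RNA of a culture, more cells making a transcript and more of it per cell cannot be told apart.

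Elaidate and oleate arrays lay closer together, and the same list had no lower member past the filter there either, beside 24.3% of all genes. Centring made 8 lower, the lowest at -0.0124, and cyclic loess 7, the lowest at -0.0001. No member was 2-fold higher, beside 0.106% of all genes, and 2 of 30, Ifit1 and Rsad2, were at least 1.5-fold higher, beside 0.723% of all genes. Some higher value on the elaidate array was found for 23 of 30 (76.7%), beside 31.5% of all genes, with a median of 0.18, or 1.13-fold. Between palmitate and elaidate, 1 member, Rsad2, was at least 2-fold higher on the palmitate array, beside 0.978% of all genes. There, 5 of 30 were at least 1.5-fold higher, beside 3.18% of all genes, and 18 had some higher value, beside 27.9%. The 4 lower members were Irgm1, Oas2, Stat2 and Zbp1, beside 37.9% of all genes, and the median was 0.10. Centring made 14 lower, with a median of 0.07. It took Trim25 under 1.5-fold, at 0.58, which left 4 members past that limit. Cyclic loess counted 26 higher and the same 4 lower, with no shift above 0.0003. The 3 comparisons share arrays and are not independent of each other.

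**Figure D1:**
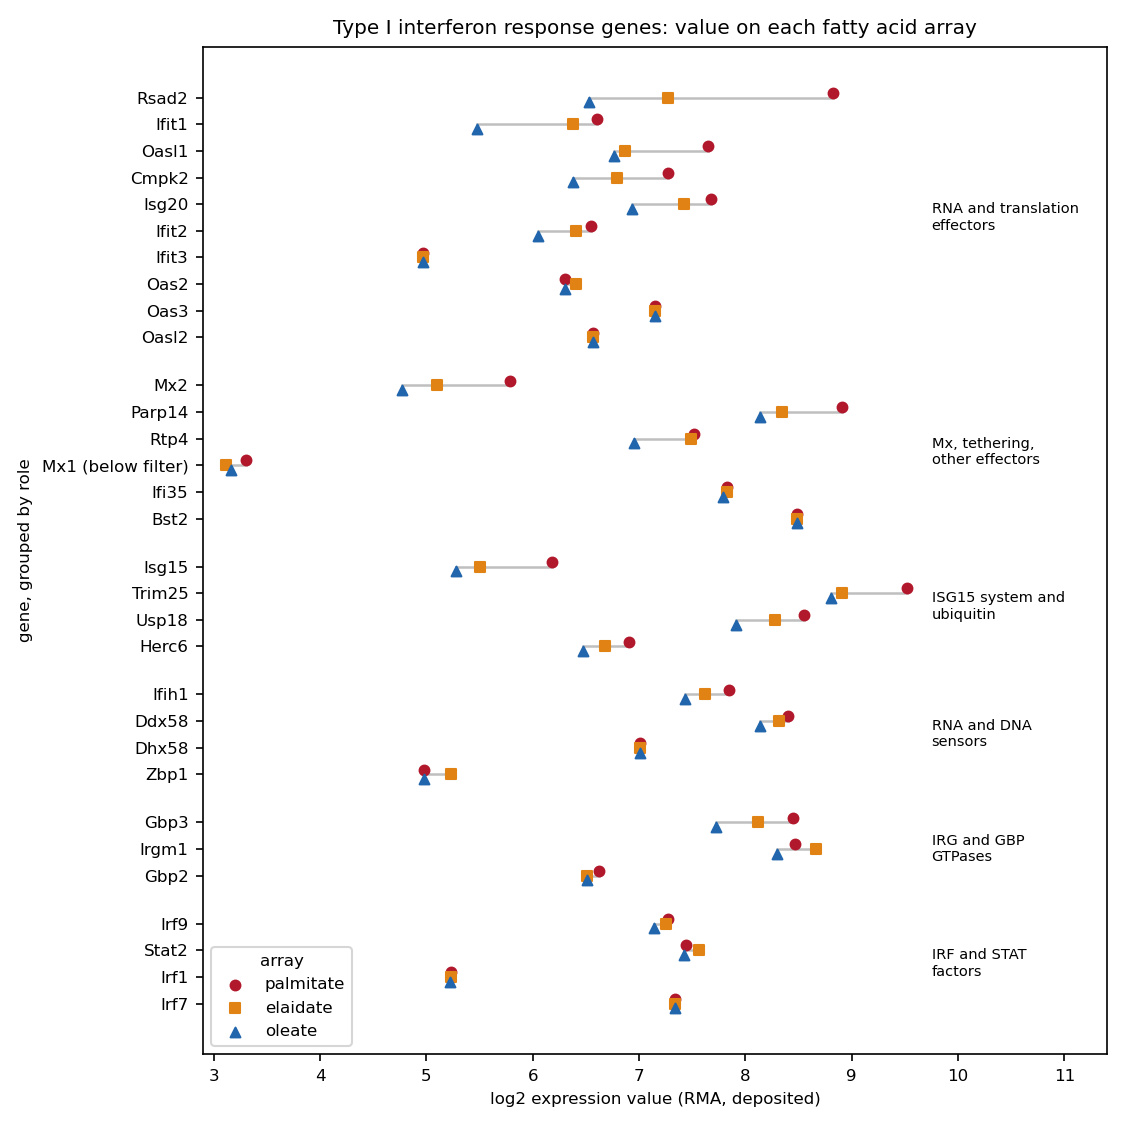
Deposited log2 expression value (horizontal axis) of the 31 measured members on the palmitate (circle), elaidate (square) and oleate (triangle) arrays, 1 array each, grouped by role; grey lines span the lowest to the highest value. Rsad2 has the widest span, from 8.82 with palmitate to 6.53 with oleate, while the IRF and STAT factors at the bottom have spans of at most 0.14; values of different genes cannot be compared, since each has its own probes.

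Effectors that act on viral RNA or on translation held the members furthest apart. Rsad2 encodes viperin, a radical SAM enzyme that makes a chain-terminating nucleotide from CTP. It had log2 values of 8.82 with palmitate, 7.27 with elaidate and 6.53 with oleate, so palmitate stood well above the other arrays. Its differences were 2.29 for palmitate minus oleate (4.91-fold), 1.55 for palmitate minus elaidate (2.92-fold) and 0.75 for elaidate minus oleate (1.68-fold). Among the 9410 genes it ranked 26 from the highest in palmitate minus oleate and 28 in elaidate minus oleate.

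Cmpk2, a mitochondrial nucleotide kinase gene that is the direct neighbour of Rsad2 on chromosome 12, kept the same order of arrays with smaller steps. Its values were 7.27 with palmitate, 6.79 with elaidate and 6.38 with oleate. The palmitate minus oleate difference was 0.88 (1.85-fold), and the elaidate array lay near the middle.

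The Ifit genes encode tetratricopeptide proteins that bind viral RNA or the translation factor eIF3. Ifit1, which recognises RNA caps that lack ribose methylation, had values of 6.60 with palmitate, 6.38 with elaidate and 5.48 with oleate. Here the elaidate array was close to palmitate and away from oleate, unlike for Rsad2. The differences were 1.12 (2.18-fold) for palmitate minus oleate, 0.22 for palmitate minus elaidate and 0.90 (1.86-fold) for elaidate minus oleate, the last ranking 13 from the highest of all genes. Ifit2 showed the same spacing in smaller form, at 6.54 with palmitate, 6.41 with elaidate and 6.05 with oleate. Ifit3, the neighbour of Ifit2 on chromosome 19 and a binding partner of IFIT1 in human cells, had 4.97 on all 3 arrays. The array also has a probe set for the near-identical copy Ifit3b, at 2.17, 1.92 and 2.17 with palmitate, elaidate and oleate, and how probes divide between these copies is uncertain.

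Isg20, a 3′ to 5′ RNA exonuclease gene, had values of 7.67 with palmitate, 7.43 with elaidate and 6.94 with oleate. Elaidate again lay nearer to palmitate, and palmitate minus oleate was 0.74 (1.67-fold).

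Oligoadenylate synthetases sense double-stranded RNA and activate RNase L, and the OAS-like members related to them were split. Oasl1, which in mouse inhibits translation of Irf7 mRNA, had 7.65 with palmitate, 6.86 with elaidate and 6.76 with oleate. Palmitate alone stood apart for this gene, by 0.89 over oleate (1.86-fold) and 0.79 over elaidate (1.73-fold), while elaidate minus oleate was 0.10. Its neighbour on chromosome 5, Oasl2, had 6.57 on all 3 arrays, and Oas3 had 7.15 on all 3. Oas2, the neighbour of Oas3, had 6.30 with palmitate, 6.41 with elaidate and 6.30 with oleate, so only elaidate differed, by 0.11 over oleate.

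Exactly equal values need care in reading. Of the 30 members, 6 (Ifit3, Oasl2, Oas3, Irf7, Dhx58 and Bst2) were equal on all 3 arrays to within 1e-06, or 20.0%, beside 27.5% of all genes past the filter. RMA combines the probes for a gene by median polish, which over so few arrays can return one value for all of them, so an equal value does not measure how alike the samples were.

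The Mx, tethering and other effectors included 2 members past 1.5-fold. Mx2, a dynamin-like GTPase gene, had 5.78 with palmitate, 5.10 with elaidate and 4.77 with oleate. Palmitate was again highest and oleate lowest, with 1.01 for palmitate minus oleate (2.02-fold) and 0.68 for palmitate minus elaidate (1.61-fold). Mx1, whose coding sequence is defective in many inbred mouse strains, had 3.30, 3.11 and 3.16 with palmitate, elaidate and oleate, below the filter on each.

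Parp14, an ADP-ribosyltransferase gene, had 8.91 with palmitate, 8.34 with elaidate and 8.14 with oleate. Most of its palmitate minus oleate difference of 0.77 (1.71-fold) separated palmitate from elaidate, at 0.56. For Rtp4, a receptor transport protein gene that in mouse limits interferon and flavivirus responses, the spacing was the reverse: 7.51 with palmitate, 7.49 with elaidate and 6.95 with oleate. Palmitate minus oleate was 0.56 and elaidate minus oleate 0.53, both just under 1.5-fold. Bst2, the tetherin gene whose product holds budding virions on the cell, stood at 8.49 on all 3 arrays. Ifi35, which binds the partner protein NMI, had 7.82 with palmitate and with elaidate and 7.79 with oleate.

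All 4 members of the ISG15 and ubiquitin group were higher with palmitate than with elaidate and higher with elaidate than with oleate. Isg15 encodes the ubiquitin-like protein that is attached to other proteins during the response. Its values were 6.18 with palmitate, 5.50 with elaidate and 5.28 with oleate, a palmitate minus oleate difference of 0.91 (1.87-fold). Palmitate was the array that stood apart, by 0.68 over elaidate. Usp18, which removes ISG15 and blocks the receptor chain IFNAR2, had 8.55 with palmitate, 8.28 with elaidate and 7.91 with oleate, with palmitate minus oleate at 0.64 (1.56-fold) and elaidate near the middle.

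Trim25, the ubiquitin ligase that acts on the RNA sensor RIG-I, had 9.51 with palmitate, 8.91 with elaidate and 8.80 with oleate. Like Oasl1, it set palmitate apart, with 0.72 over oleate (1.64-fold) and 0.61 over elaidate (1.52-fold). Herc6, the main ISG15 ligase in mouse, had 6.91, 6.68 and 6.47 with palmitate, elaidate and oleate, and its palmitate minus oleate difference of 0.44 was under 1.5-fold.

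No sensor of nucleic acid passed 1.5-fold. Ifih1, the gene of the long double-stranded RNA sensor MDA5, had 7.85 with palmitate, 7.62 with elaidate and 7.43 with oleate, a palmitate minus oleate difference of 0.42. Ddx58, the gene of RIG-I, had 8.40, 8.31 and 8.14 in the same order of fatty acids, and the difference was 0.26. Both kept palmitate highest and oleate lowest. Dhx58, the gene of their regulator LGP2, had 7.01 on all 3 arrays. Zbp1, a sensor of Z-form nucleic acid that can start necroptosis, was higher only on the elaidate array, at 4.98 with palmitate, 5.24 with elaidate and 4.98 with oleate.

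The GTPases of cell-autonomous immunity, which act on vacuoles holding pathogens, differed among themselves. Gbp3, a guanylate-binding protein gene, had 8.45 with palmitate, 8.12 with elaidate and 7.72 with oleate, with palmitate minus oleate at 0.73 (1.66-fold) and elaidate near the middle. Gbp2 had 6.62, 6.51 and 6.51 in the same order of fatty acids, so only palmitate differed, by 0.11. Irgm1, an immunity-related GTPase gene that also bears on autophagy, was highest on the elaidate array, at 8.47 with palmitate, 8.66 with elaidate and 8.29 with oleate.

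The transcription factors of the list had the smallest median difference of the groups in each comparison. Those medians include the equal values of Irf7 and an Irf1 mean with 1 probe set below the filter limit of 4.14. They do not measure how alike the samples were. Irf7, which amplifies interferon production, had 7.34 on all 3 arrays. Irf9, the DNA-binding partner of STAT2, had 7.27 with palmitate, 7.25 with elaidate and 7.14 with oleate. Stat2 had 7.44, 7.56 and 7.42 in the same order of fatty acids, so the elaidate array was highest, by 0.14 over oleate. Irf1, which drives antigen presentation genes, differed by no more than 0.01; its value is the mean of 2 probe sets, one at 7.11 on all 3 arrays and one between 3.34 and 3.36. The median palmitate minus oleate difference was 0.01 over these 4 factors, against 0.62 over the 10 RNA and translation effectors and 0.68 over the 4 genes of the ISG15 and ubiquitin group.

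**Figure D2:**
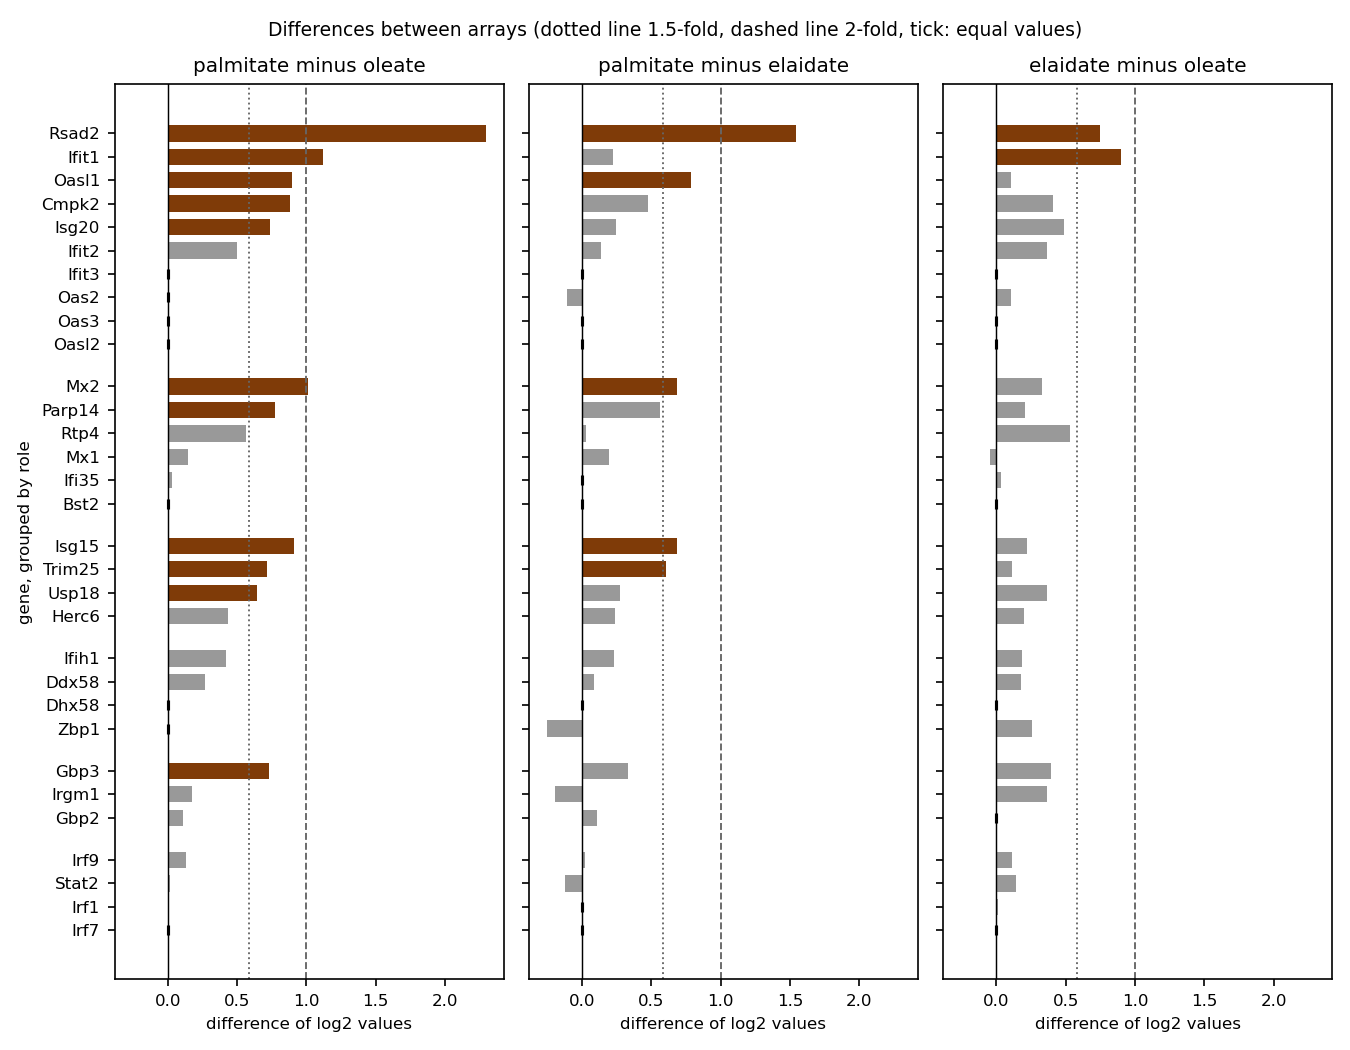
Difference of log2 values (horizontal axis) of each measured member for palmitate minus oleate, palmitate minus elaidate and elaidate minus oleate, with bars past 1.5-fold in brown, the 1.5-fold limit dotted and the 2-fold limit dashed; a tick at 0 marks equal values. In the first panel 11 bars pass the 1.5-fold limit and 3 the 2-fold limit, in the second 5 and 1, and in the third 2 and none; 1 array per fatty acid, so no error bars.

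The elaidate array held a middle position that varied from gene to gene. Of the 19 members with 3 different values, 17 were highest on the palmitate and lowest on the oleate array, which is 56.7% of the 30 members past the filter, beside 13.1% of all genes past the filter. The other 2, Stat2 and Irgm1, were highest on the elaidate array. For the 11 members at least 1.5-fold higher with palmitate than with oleate, elaidate minus oleate amounted to between 11.7% and 80.0% of palmitate minus oleate, with a median of 32.6%; both differences use the oleate array. Oasl1 at 11.7%, Trim25 at 15.3%, Isg15 at 24.7% and Parp14 at 26.9% were at the low end. Ifit1 at 80.0%, Isg20 at 66.4%, Usp18 at 57.4% and Gbp3 at 54.2% were at the high end, and Rsad2 and Mx2 lay between at 32.6% and 32.3%.

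Set out by structure, elaidate and oleate differ in the geometry of a single double bond, and the largest member differences across that change were 0.90 for Ifit1, 0.75 for Rsad2 and 0.53 for Rtp4. Palmitate differs from both in having no double bond and a shorter chain, and the largest differences across that change were those of Rsad2, at 1.55 over elaidate and 2.29 over oleate. All 3 pairs were compared at the same dose and time. Without replicate arrays no interval can be given for any of these differences, and equal or near values do not show that the fatty acids act alike.

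Genes upstream of the response were low, near 0 in difference, or went both ways. The interferon genes themselves were at low values: 13 of 14 with a probe set of their own were below the filter, among them Ifnb1, the interferon beta gene, at 2.80 with palmitate, 2.80 with elaidate and 2.95 with oleate. Ifng was at 2.48 on all 3. Differences among values this low cannot be ranked between these arrays. The one past the filter was Ifnl2, a type III interferon gene, at 5.29, 5.24 and 5.48 with palmitate, elaidate and oleate, highest with oleate.

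Of 8 receptor and kinase genes past the filter, none was 1.5-fold different in any comparison. Ifnar1 had 8.34 with palmitate, 8.50 with elaidate and 8.50 with oleate, and Ifnar2 had 9.64, 9.60 and 9.60. Jak1 was at 9.26 on all 3, while Tyk2 was 0.20 lower on the palmitate array than on either other array. The interferon gamma receptor chain Ifngr2 was furthest from 0, at -0.42 for palmitate minus oleate.

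Among 18 adaptor, kinase and receptor genes that lead to interferon production, 7 were higher, 8 lower and 3 equal with palmitate relative to oleate. These are 38.9%, 44.4% and 16.7%, beside 30.9%, 36.8% and 32.3% of all genes, and the median was 0. At least 1.5-fold, 2 were higher and 2 lower, or 11.1% each, beside 4.57% and 4.73% of all genes. At least 2-fold higher was 1, or 5.56%, beside 1.65%. Ticam2, the adaptor TRAM that links the lipopolysaccharide receptor TLR4 to interferon induction, was the member past 2-fold. It had 7.25 with palmitate, 5.65 with elaidate and 5.43 with oleate, or 1.82 for palmitate minus oleate (3.54-fold) and 1.60 for palmitate minus elaidate. Its partner Ticam1, the adaptor TRIF, had 6.94, 6.38 and 6.53 in the same order of fatty acids. Tank, which links adaptors to the kinase TBK1, was the other one at least 1.5-fold higher, at 8.94 with palmitate, 8.61 with elaidate and 8.18 with oleate, or 0.76 for palmitate minus oleate (1.69-fold). The 2 at least 1.5-fold lower were receptors of endosomal nucleic acid: Tlr7 had 7.42 with palmitate, 8.32 with elaidate and 8.10 with oleate, and Tlr9 had 7.21, 7.68 and 7.91. Mavs, the mitochondrial adaptor of RIG-I and MDA5, was 0.22 lower, Sting1, the adaptor of cytosolic DNA sensing, 0.31 lower, and Cgas and Tbk1 equal with palmitate relative to oleate.

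The IRF and STAT factors outside the list were all lower with palmitate than with oleate, 8 of 8 past the filter, beside 36.8% of all genes, with a median of -0.27. Irf8, a lineage factor of macrophages, had 7.95 with palmitate, 8.84 with elaidate and 9.34 with oleate, or -1.38 for palmitate minus oleate. Irf5, which drives inflammatory cytokine genes, followed at -0.75. Irf3, a factor that starts interferon beta transcription, differed by less than 0.01 in every comparison. Of 16 feedback inhibitors past the filter, a list that also holds Usp18, 7 were higher and 7 lower in palmitate minus oleate. That is 43.8% each, beside 30.9% and 36.8% of all genes. Ptpn6, a phosphatase gene, was lowest at -0.66.

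Other interferon-stimulated genes had a median of 0, with a subset well above it. Of 78 past the filter, 34 were higher with palmitate than with oleate (43.6%, beside 30.9% of all genes) and 21 lower (26.9%, beside 36.8%). The other 23 were equal (29.5%, beside 32.3% of all genes), and the mean difference was 0.17. At least 2-fold higher were 7, or 8.97%, beside 1.65% of all genes, and none was 2-fold lower, beside 1.22%. At least 1.5-fold, 11 were higher (14.1%) and 5 lower (6.41%), beside 4.57% and 4.73% of all genes. Cd274, the gene of the immune checkpoint ligand PD-L1, had 9.47 with palmitate, 7.66 with elaidate and 6.85 with oleate, a palmitate minus oleate difference of 2.62 and an elaidate minus oleate difference of 0.81. The chemokine genes Cxcl10 and Ccl5 stood at 1.88 and 1.40 for palmitate minus oleate, the guanylate-binding protein gene Gbp7 at 1.02, the inflammatory caspase gene Casp4 at 1.29 and the zinc finger antiviral protein gene Zc3hav1 at 1.19. Gbp8, also among the 7, had 5.35 with palmitate but 4.09 with elaidate and 3.74 with oleate, both below the filter limit of 4.14. It passed the filter through the palmitate value, so the size of its difference is not read here. The counts of 34, 7 and 11 higher genes and the mean of 0.17 include Gbp8, and its part in them is no support. The 5 lower genes were Ms4a6b at -0.95, the surface protein gene Ly6e at -0.76, Phf11a at -0.65, Pml, of nuclear bodies, at -0.63, and Ifi27l2a at -0.61. Eif2ak2, the gene of the kinase PKR, which the listed symbol Eif2ak2x resembles but does not match, had 8.10 with palmitate, 8.42 with elaidate and 8.24 with oleate.

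Antigen presentation genes were lower or equal with palmitate relative to oleate, except 1. Of 15 past the filter, 9 were lower (60.0%, beside 36.8% of all genes), 1 higher (6.67%, beside 30.9%) and 5 equal, with a median of -0.10, which centring and cyclic loess left below 0, and none past 1.5-fold. The immunoproteasome subunit gene Psmb8 was lowest at -0.39. Among genes that lean on interferon gamma, Cxcl9 at 2.23 and Iigp1 at 1.93 had the same low value on all 3 arrays, and Gbp7 was the only one of the 5 past the filter to reach 1.5-fold.

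**Figure D3:**
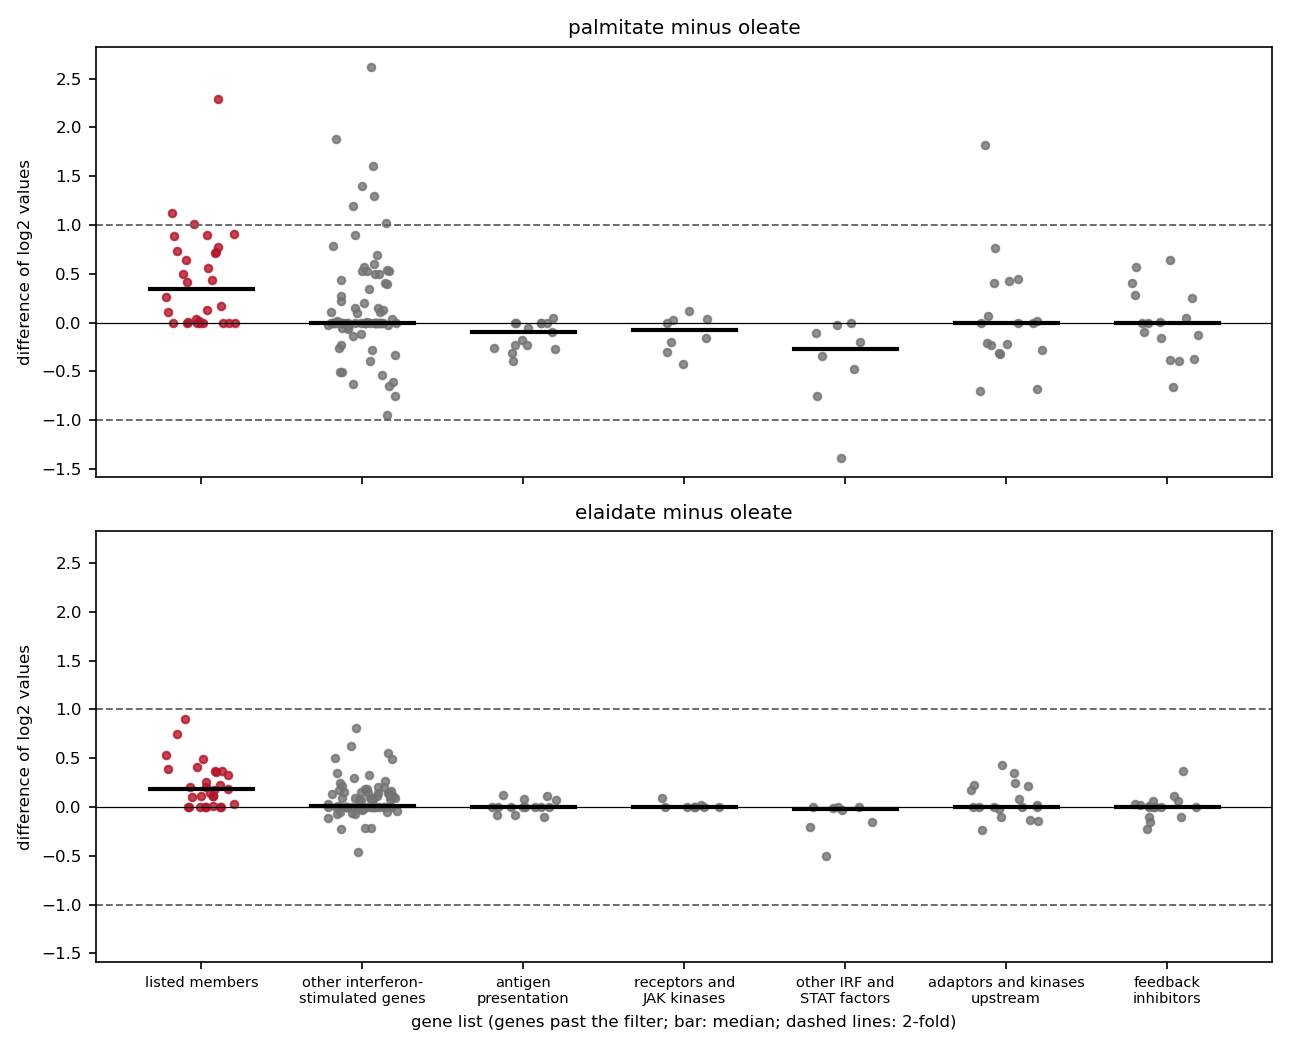
Difference of log2 values (vertical axis) for palmitate minus oleate (top) and elaidate minus oleate (bottom) of single genes (points) past the filter, by gene list, with the list median as a bar and the 2-fold limits dashed. The listed members have medians of 0.34 and 0.18, against medians between -0.27 and 0.01 in the 6 other lists plotted; points of different lists can share a gene.

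The promoter windows were then searched over all members for 3 motifs on both strands: the ISRE letters GAAANNGAAA, the letters TTCNNNGAA of the interferon gamma-activated site (GAS), and the NF-kB letters GGGANNTTCC. By symbol, 26 of the 35 listed genes matched a RefSeq window, and Mx1, Mx2, Usp18, Oas2, Dhx58, Zbp1, Parp14, Rtp4 and Eif2ak2x did not. The ISRE letters occurred for 13 of the 26 (50.0%), beside 3.99% of the 27025 genes with a window and 3.44% of 32851 windows. The GAS letters occurred for 6 (23.1%), beside 9.55% of genes, and the NF-kB letters for 3 (11.5%), beside 1.63%. A match is a run of letters and not a shown binding site, and genes with several windows were counted once.

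The ISRE letters occurred both in members whose values differed between the arrays and in members with equal values. Since equal values do not measure how alike the samples were, the latter cannot be read as unchanged. Among the 8 members with a window that were at least 1.5-fold higher with palmitate than with oleate, 4 had them: Rsad2, Ifit1, Isg15 and Gbp3. The other 4, Oasl1, Cmpk2, Isg20 and Trim25, had none in the window. Under 1.5-fold, 8 of 15 had them, and of the 5 members with a window and equal values on all 3 arrays, 3 had them: Ifit3, Oas3 and Bst2, whose windows are printed above. The GAS and ISRE letters overlapped in Bst2, and the GAS and NF-kB letters overlapped in Ifit2.

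**Figure D4:**
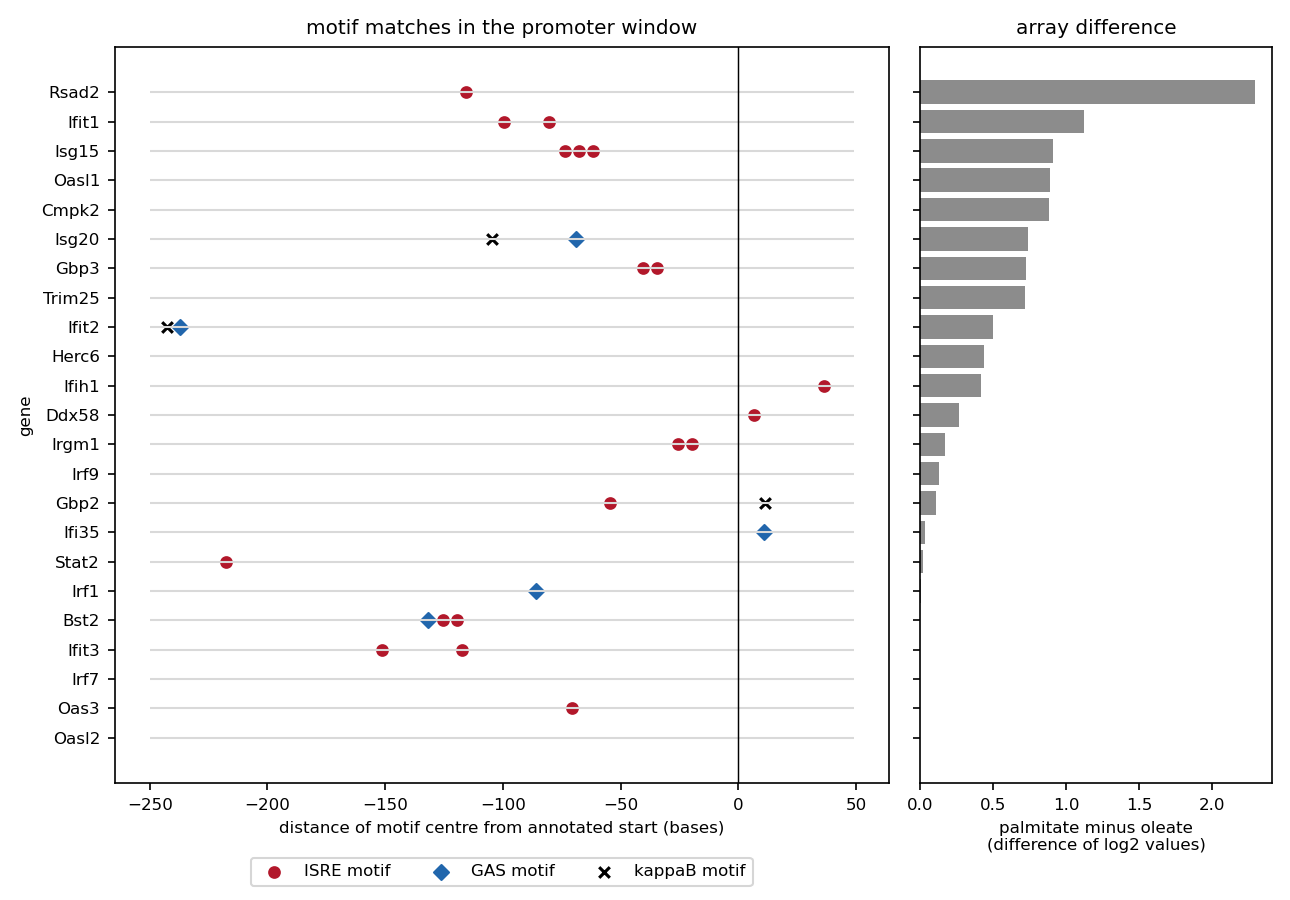
Left, distance in bases of each motif match from the annotated start for the 23 measured members with a promoter window (circle ISRE, diamond GAS, cross NF-kB), ordered by the palmitate minus oleate difference of log2 values, which the bars on the right show. ISRE matches appear both at the top, in Rsad2, Ifit1 and Isg15, and at the bottom, in Bst2, Ifit3 and Oas3, where the difference is 0. Such equal values do not measure how alike the samples were.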

How the data were processed

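Biotin-labelled RNA of 3 RAW264.7 cultures was hybridised to Affymetrix whole-transcript arrays, per the labels' protocols, and each array was assigned to its fatty acid from the labels. The authors deposited log2 values for each probe set; the submitters' processing notes name RMA, with no version given in the sources used here. They were used as deposited. Of 35556 probe sets, the platform annotation, which can be old, gave 1 symbol for 21218, several for 1881 and none for 12457. Only the first kind was used, and the mean was taken where a gene had several. The files name no build, so gene coordinates are not given; promoter windows carry RefSeq's own.

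Differences of log2 values were computed for the 3 pairs of arrays, and genes at least 2-fold or 1.5-fold different were counted. No test was possible. The members and gene lists were chosen with earlier results of these data known, so they are no independent support. Every measured member is given with values. From other lists, genes at least 2-fold different were named, or otherwise up to 4 of those furthest from 0, together with the receptors, kinases, adaptors and ligands of the pathway; a few more, such as the 1.5-fold lower interferon-stimulated genes, Tank, Tlr7, Tlr9, Irf5, Cxcl9 and Iigp1, were named after their values were seen. Arrays have no depth, and their number limits the precision. Counting steps were tested on simulated data. Alternatives were other filters, a 3-fold limit, centring, cyclic loess (limma 3.58.1 under R 4.3.3, span 0.7, 3 iterations), the brightest probe set of a gene, and other list summaries. Calculations were run with matplotlib 3.10.9, scipy 1.17.1, pandas 2.3.3 and numpy 2.4.6 under Python 3.11.15.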

Additional observations from a re-analysis of the deposited data

How the results depend on the processing

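Every difference of a single member past the filter moved by at most 0.1 on the log2 scale under centring of the arrays, cyclic loess or use of the brightest probe set of a gene. Counts of the members past a fold limit stayed within 1.5 times of those reported under the same alternatives. The same held under no filter and under a filter on the highest value. For palmitate minus oleate, the median of the members, 0.34 as reported, was 0.30 under centring and 0.26 under no filter. For palmitate minus elaidate it was 0.07 and 0.11, and for elaidate minus oleate 0.17 and 0.18. Members share arrays and are not replicates, so no interval is given for these medians. A filter at the 75th percentile left 15 members; at least 2-fold higher was then 1 for palmitate minus oleate, and at least 1.5-fold higher were 6 for palmitate minus oleate, 2 for palmitate minus elaidate and 1 for elaidate minus oleate, since fewer genes were counted. With a 3-fold limit, 1 member (Rsad2) was higher for palmitate minus oleate, and 0 were for palmitate minus elaidate. For the other interferon-stimulated genes, centring gave medians of -0.04 for palmitate minus oleate, -0.0276 for palmitate minus elaidate and -0.0019 for elaidate minus oleate, the last on the other side of 0 from 0.01. That centring moved the median of all genes by -0.04, -0.0276 and -0.0124 in the same comparisons. Cyclic loess gave 0.0001 for palmitate minus elaidate. The mean in place of the median in that list was 0.1749 for palmitate minus oleate and, between palmitate and elaidate, 0.0923. No paired analysis was possible because each fatty acid has 1 array. Signal over background is not given in the deposited values, and genes near or below the filter, such as Mx1 and the interferon genes, cannot be ranked between arrays.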

Other observations

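Families beside the listed genes, chosen after their values were seen, differed from one another. The interferon-induced membrane protein genes, whose products block virus entry, were lower with palmitate than with oleate where they differed: Ifitm2 had 9.70 with palmitate, 10.13 with elaidate and 10.20 with oleate, and Ifitm3 had 11.66, 11.93 and 11.94. The Schlafen genes Slfn2 and Slfn4 were higher, at 8.99 with palmitate, 8.76 with elaidate and 8.46 with oleate for Slfn2 and 8.08, 7.70 and 7.69 for Slfn4. Slfn3 had equal values on the palmitate and oleate arrays, at 7.90.

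The ISRE letters were also counted in genes outside every list used here. Of 249 such genes past the filter with a match in a promoter window, 6.43% were at least 1.5-fold higher and 6.83% at least 1.5-fold lower with palmitate than with oleate, beside 4.26% and 4.63% of 7276 genes without a match. For the ISRE letters, both directions were a little more frequent with a match. With the GAS letters, 6.09% of 608 genes were higher and 4.44% lower, beside 4.18% and 4.73% of 6917 without a match. With the NF-kB letters, 5.74% of 122 genes were higher and 2.46% lower, beside 4.31% and 4.74% of 7403 without a match. These shares describe the arrays and were not tested.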
